A study of Rattus norvegicus with 18 samples.

Results

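Potassium channel genes of the rat PFC were described here, taken as every listed gene whose symbol starts with Kcn. The tables held 94 such genes with 93 symbols out of 32623 genes, and 83 of them passed the filter of at least 10 counts in at least 6 pups, out of 15733 genes that did. RNA-seq was done on 18 Sprague Dawley pups at postnatal day 14 (P14), 6 in each of 3 groups. Dams of the saline (SAL) pups received saline by gavage. Dams of the postnatal oxycodone (PNO) pups were gavaged with oxycodone (oxy), a prescription opioid, at 15 mg/kg/day from parturition until weaning, so that the pups took it up with the milk. Dams of the in utero oxycodone (IUO) pups were gavaged with 10 mg/kg/day for 5 days and with daily steps of 0.5 mg/kg/day for 10 days up to 15 mg/kg/day, then mated and kept on the drug through gestation and nursing until weaning. IUO pups were therefore exposed before and after birth, and no group was exposed before birth alone. The labels name no dam for any pup, so pups of a group may share a litter, and every p-value given here measures only the spread between these pups.

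Potassium channels let potassium leave a neuron, which sets its resting potential, ends its action potentials and limits how often it fires. Voltage-gated (Kv) channels open on depolarization, inward rectifiers (Kir) hold the resting potential and include the GIRK channels that G protein-coupled receptors such as the opioid receptors open, tandem-pore (K2P) channels carry leak current, and KCa channels open on intracellular calcium or, in related subunits, sodium. Auxiliary subunits such as the KChIP (Kcnip), Kvβ (Kcnab) and Kcne proteins change how Kv channels gate and reach the membrane.

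Summed expected counts per pup lay between 18381819 and 26084780, with medians of 23178826 in SAL, 20810530 in PNO and 23098790 in IUO. *Slc17a7*, the vesicular glutamate transporter of cortical excitatory neurons, was present in every group, with 769 ± 202 TPM in SAL (SD, n = 6), as the tissue label says. The pups differed within groups in markers of neighboring tissue. A score of 12 striatal markers (mean log2 CPM, centered per gene) lay between -1.56 and 1.63 in SAL, -1.33 and 1.22 in PNO and -0.06 and 1.86 in IUO, and *Ttr*, made by the choroid plexus, lay between 0.330 and 2656 TPM over the 18 pups. The 12 myelin markers were all lower in IUO than in PNO, with a median log2 difference of -1.37. Fewer cells of a type and less RNA per cell cannot be told apart in these bulk samples.

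Levels of different genes were compared in TPM, which divides by gene length. The highest channel subunit gene in SAL was *Kcnmb4*, the neuronal β4 subunit of the BK channel, at 114 ± 28.3 TPM (SD, n = 6). The lowest of the 83 genes tested was *Kcna7*, at 0.145 ± 0.0635 TPM. The median of the 83 genes was 9.41 TPM against 14.2 TPM for all 15733 genes tested.

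Among the 37 Kv pore genes tested of 39 listed, *Kcnh3*, an ether-à-go-go type channel of the forebrain, was highest at 56.8 ± 16 TPM in SAL, followed by *Kcnf1*, an electrically silent subunit, at 50.3 ± 28.9 TPM and *Kcnc4*, the A-type Kv3.4 channel, at 32.0 ± 6.86 TPM. These values overlap within their SD for *Kcnh3* and *Kcnf1*. *Kcnq5* lay close behind *Kcnc4*, at 18.1 to 40.7 TPM over the SAL pups against 25.3 to 44.6 TPM. The 39 Kv genes summed to 519 ± 160 TPM in SAL, 474 ± 109 in PNO and 526 ± 114 in IUO. Auxiliary Kv genes were fewer, 11 tested of 12, but had the highest class median, 37.4 TPM. *Kcnip2*, a KChIP that binds Kv4 channels, had 74.4 ± 28.3 TPM, *Kcnip1* 52.4 ± 7.89 TPM and *Kcnip4* 51.3 ± 5.98 TPM.

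Of the Kir genes, 13 of 15 were tested, and *Kcnj9* (GIRK3) at 46.7 ± 13.4 TPM and *Kcnj4* (Kir2.3) at 44.8 ± 12.2 TPM were highest, with *Kcnj3* (GIRK1) next at 20.4 ± 11.4 TPM. Of the K2P genes, 12 of 14 were tested, and *Kcnk1* (TWIK-1) had 37.1 ± 7.42 TPM, *Kcnk4* (TRAAK) 35.6 ± 10.2 TPM and *Kcnk2* (TREK-1) 25.5 ± 8.08 TPM. Of the KCa genes, 9 of 13 were tested, with *Kcnt1*, a sodium-activated channel, at 33.0 ± 6.43 TPM and *Kcnn1* (SK1) at 22.1 ± 4.42 TPM below *Kcnmb4*. *Kcnrg*, which encodes a regulator of Kv channels and not a channel, had 2.04 ± 0.516 TPM and was kept apart.

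**Figure D1:**
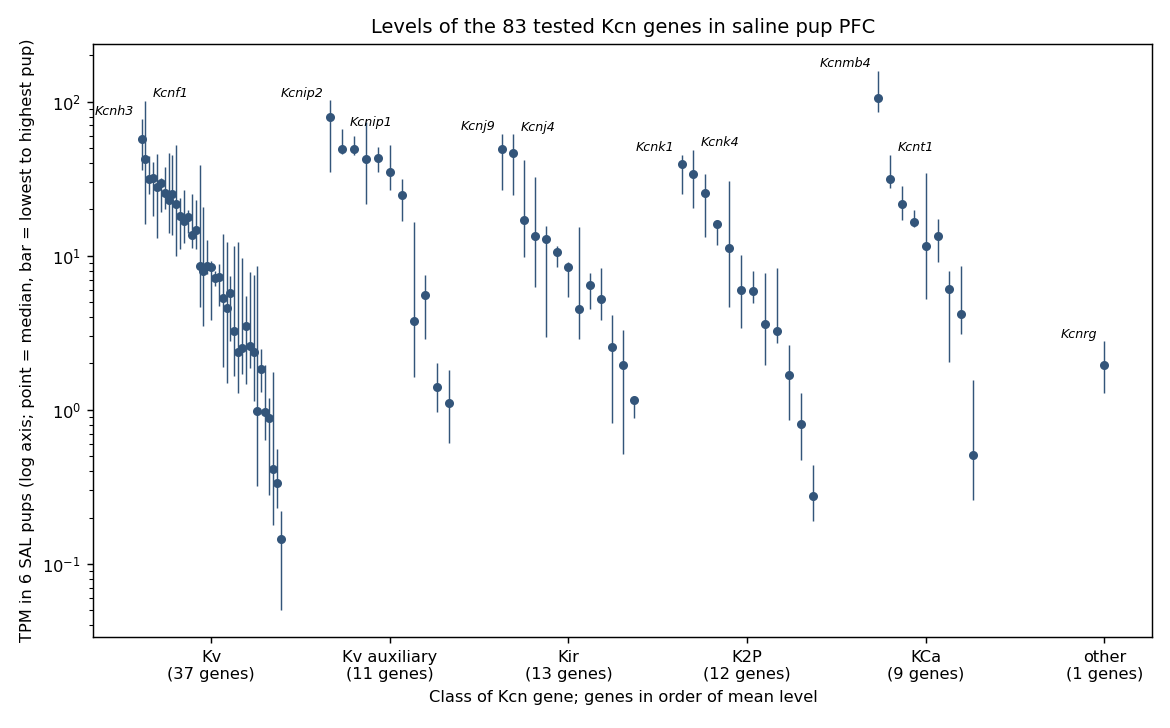
TPM of each of the 83 tested potassium channel genes in the 6 SAL pups, by class, on a log axis. Points are medians and bars run from the lowest to the highest pup, and *Kcnmb4* stands highest, with a mean of 114 TPM.

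The 94 genes together summed to 1418 ± 301 TPM in SAL (983 to 1904), 1314 ± 225 in PNO (1112 to 1624) and 1411 ± 193 in IUO (1175 to 1741), so that the 3 groups overlapped. The 11 genes that were not tested were *Kcnj1*, *Kcnj15*, *Kcne1*, *Kcnmb1*, *Kcnmb3*, *Kcnv2*, *Kcnu1*, *Kcnk7*, *Kcnk18*, *Kcna10* and a second identifier of *Kcnn2*. No pup had more than 20 counts for any of them, the maximum being *Kcnv2* in an IUO pup. Reads of *Kcnn2* could be divided between its identifiers, though the second held at most 2.54 counts in a pup.

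Potassium channel genes had a larger median spread between pups of a group than genes in general. Their biological coefficient of variation, the spread beyond counting error that edgeR estimates, had a median of 0.261 against 0.180 for all genes tested. It was largest for *Kcnh5* (0.734), *Kcnj13* (0.571), *Kcna3* (0.561), *Kcnq3* (0.549) and *Kcna5* (0.536).

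SAL replicate 6 stood apart in several of these. For *Kcnh5*, which encodes an ether-à-go-go channel, SAL pups ran from 0.813 through a median of 2.06 to 15.7 CPM, and the highest was replicate 6. *Kcna3* (Kv1.3) ran from 3.03 through 4.52 to 20.1 CPM in SAL, and *Kcnq3*, a subunit of the M-current channel, from 8.08 through 12.1 to 46.1 CPM, with replicate 6 highest in both. That pup was the highest of the 18 for 23 of the 83 genes (27.7%), against 18.5% of all genes tested. PNO replicate 1 was the highest for 12 (14.5%, against 7.79% of all genes). Results that rest on the SAL group are given with and without SAL replicate 6 where it turns their direction or moves them most.

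The comparison of PNO with SAL asks what exposure through the milk did. No potassium channel gene passed an adjusted p of 0.05 by edgeR's quasi-likelihood test with Benjamini-Hochberg adjustment over all genes, nor did any gene at all (percent called 0), and the smallest adjusted p among the channels was 0.913. At an unadjusted p under 0.05 there were 3 of 83, or 3.61%, against 4.51% of all genes tested, 2 higher in PNO (1.90% of all genes were) and 1 lower (2.61%). DESeq2 and limma-voom called 0 channel genes, where DESeq2 called 1 of all 15733 genes and limma-voom 0. With the added requirement of a 1.5-fold difference, 1 channel gene was left, against 1.26% of all genes. The groups of 6 separated for 0 channel genes, against 0.108% of all genes. The median log2 fold change was -0.02, against 0.00 for all genes.

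The 3 genes were *Kcnn4*, *Kcnc2* and *Kcnn2*. *Kcnn4*, the intermediate-conductance KCa channel best known from blood and microglial cells, ran from 0.293 through a median of 0.661 to 1.73 CPM in SAL and from 0.266 through 0.352 to 0.521 CPM in PNO. These are 7 to 42 counts per SAL pup and 5 to 12 per PNO pup, the highest SAL value is replicate 6, and the groups overlapped. The log2 fold change was -0.95 ± 0.36 (SE; unadjusted p = 0.0177 and adjusted p = 0.913 by edgeR), and -0.50 without SAL replicate 6.

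*Kcnc2* (Kv3.2), a fast delayed rectifier of fast-spiking interneurons, ran from 24.3 through 31.9 to 35 CPM in SAL and from 30.8 through 36.2 to 49.8 CPM in PNO, a log2 fold change of 0.30 ± 0.11 (unadjusted p = 0.0178, adjusted p = 0.913 by edgeR). PNO replicate 1 held the highest value, the groups overlapped, and the log2 fold change was 0.20 without that pup. *Kcnn2* (SK2), which carries part of the afterhyperpolarization current, had a log2 fold change of 0.22 ± 0.09 (unadjusted p = 0.0266, adjusted p = 0.913 by edgeR). Next in order of p were *Kcnip4* at 0.21 ± 0.11, *Kcns1*, a silent Kv subunit, at 0.62 ± 0.35 and *Kcnh8* at -0.80 ± 0.47 on the log2 scale (-0.28 without SAL replicate 6), and none of these had an unadjusted p under 0.05.

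Between PNO and SAL the 12 myelin markers were all higher in PNO (median log2 fold change 0.72), as were the 11 choroid plexus markers (0.64), and 11 of the 12 striatal markers were lower (-0.25). With the myelin score in the model *Kcnn4* had -0.56 (unadjusted p = 0.165), *Kcnc2* 0.25 and *Kcnn2* 0.20 (both unadjusted p = 0.0582 by edgeR), and with the striatal score the log2 fold changes were -0.95, 0.30 and 0.22, all with an unadjusted p under 0.05. The part of these tissues in the differences was not tested.

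The comparison of IUO with SAL asks what exposure before and after birth did, and it shares its SAL pups with the former. Again 0 channel genes passed an adjusted p of 0.05 by edgeR, as did 0 of all genes, and the smallest adjusted p among the channels was 0.497. At an unadjusted p under 0.05 there were 7 of 83, or 8.43%, against 6.86% of all genes, and 6 of the 7 were lower in IUO, where 3.85% of all genes were lower and 3.01% higher. DESeq2 and limma-voom called 0 channel genes, where they called 49 and 43 of all 15733 genes. A single channel gene also reached a 1.5-fold difference, against 1.59% of all genes, and for 0 channel genes did the groups separate, against 0.750% of all genes. The median log2 fold change of the channels was -0.04, against -0.01 for all genes.

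Of the 7, 4 lower genes and the 1 higher gene encode Kv pore subunits. *Kcnc1* (Kv3.1), which lets fast-spiking interneurons repolarize quickly, ran from 26.7 through 34.7 to 55.4 CPM in SAL and from 21.3 through 27.8 to 31.0 CPM in IUO. Only part of the SAL pups lay above the IUO range, and the log2 fold change was -0.50 ± 0.16 (unadjusted p = 0.00511, adjusted p = 0.497 by edgeR). *Kcng4* (Kv6.4), a silent subunit that pairs with Kv2 channels, ran from 1.57 through 2.62 to 4.83 CPM in SAL and from 0.655 through 1.38 to 2.95 CPM in IUO, a log2 fold change of -1.0 ± 0.34 (unadjusted p = 0.00947, adjusted p = 0.527 by edgeR). The groups overlapped here too.

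*Kcna2* (Kv1.2), an axonal channel that clusters beside the node of Ranvier, had a log2 fold change of -0.35 ± 0.15 (unadjusted p = 0.0278), and *Kcna4* (Kv1.4), an A-type channel, had -0.25 ± 0.11 (unadjusted p = 0.0323), both with an adjusted p of 0.675 by edgeR. *Kcng2*, another silent subunit, was the gene that was higher, from 6.23 through 7.88 to 8.74 CPM in SAL and from 6.59 through 10.1 to 12.1 CPM in IUO (log2 fold change 0.37 ± 0.14, unadjusted p = 0.0147, adjusted p = 0.574 by edgeR). Outside the Kv pore genes stood *Kcnip3*, a KChIP also known as the transcriptional repressor DREAM, at -0.35 ± 0.12 (unadjusted p = 0.00964, adjusted p = 0.527) and the inward rectifier *Kcnj14* (Kir2.4) at -0.39 ± 0.16 (unadjusted p = 0.0277, adjusted p = 0.675 by edgeR).

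Between IUO and SAL the 12 myelin markers were all lower (median log2 fold change -0.60) and the 12 striatal markers all higher (0.50) in IUO, and 9 of 11 choroid plexus markers were lower (-0.57). The interneuron marker *Pvalb* had -1.55 ± 0.41 (unadjusted p = 0.00124, adjusted p = 0.343 by edgeR) and *Syt2* -0.75 ± 0.36 (unadjusted p = 0.0511, adjusted p = 0.736 by edgeR). Of the 7 tested genes in the marker list of fast-spiking interneurons, however, 4 were higher and 3 lower in IUO than in SAL. Their median log2 fold change was 0.06, and 1 had an unadjusted p under 0.05 by edgeR. Of the 7 genes, 4 (*Kcnc1*, *Kcnip3*, *Kcng2* and *Kcna4*) had an unadjusted p under 0.05 by edgeR with either score in the model. *Kcna2* had -0.23 with the striatal score (unadjusted p = 0.127) and -0.45 with the myelin score (unadjusted p = 0.00699 by edgeR). *Kcng4* had -0.62 with the myelin score (unadjusted p = 0.0556) and -1.15 with the striatal score (unadjusted p = 0.00586 by edgeR). *Kcnj14* had -0.32 (unadjusted p = 0.0793) and -0.39 (unadjusted p = 0.0450 by edgeR) in the same order. The part of these tissues and cells in the differences was not tested.

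Of the 13 Kir genes tested, 11 were lower in IUO than in SAL and 2 were higher, with a median log2 fold change of -0.19, where 48.0% of all genes were higher. Without SAL replicate 6 the count was 9 of 13 with a median of -0.11, and without SAL replicate 5 it was 9 with a median of -0.08. *Kcnj14* was the only one of the 13 with an unadjusted p under 0.05 by edgeR over the 18 pups. Against PNO, 9 of the 13 were lower in IUO, with a median of -0.12.

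GIRK channels are tetramers of the subunits encoded by *Kcnj3* (GIRK1), *Kcnj6* (GIRK2), *Kcnj9* (GIRK3) and *Kcnj5* (GIRK4), and they are opened by Gβγ when an opioid or GABA-B receptor is activated. *Kcnj9* ran from 34.8 through 61.0 to 85.4 CPM in SAL, from 48.7 through 67.3 to 91.0 CPM in PNO and from 37.2 through 55.1 to 70.2 CPM in IUO. *Kcnj3* ran from 13 through 18.5 to 38.8 CPM in SAL, from 13.2 through 15.0 to 28.2 CPM in PNO and from 10.4 through 17.0 to 23.1 CPM in IUO. The 3 groups overlapped for both.

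*Kcnj6* ran from 4.47 through 5.42 to 19.2 CPM in SAL, from 4.99 through 6.12 to 8.38 CPM in PNO and from 4.43 through 7.75 to 11.9 CPM in IUO. *Kcnj5* ran from 2.51 through 3.34 to 3.73 CPM in SAL, from 2.88 through 3.34 to 4.47 CPM in PNO and from 2.30 through 2.84 to 3.05 CPM in IUO. SAL replicate 6 was the highest pup for *Kcnj3* and *Kcnj6* and the lowest SAL pup for *Kcnj5*.

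**Figure D2:**
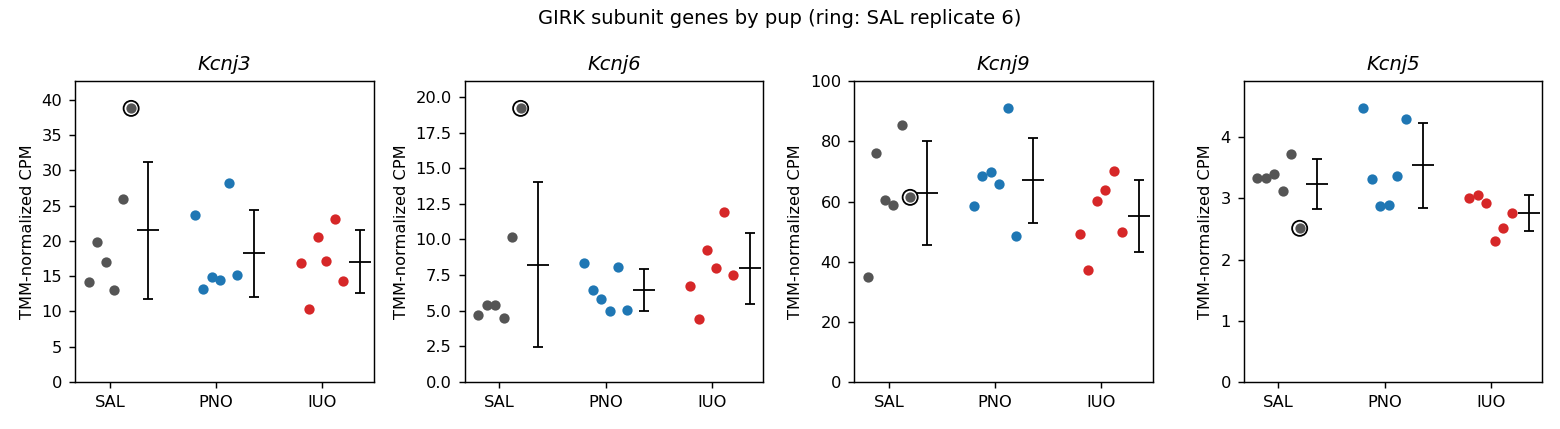
TMM-normalized CPM of the 4 GIRK subunit genes, with 1 point per pup for SAL, PNO and IUO and the mean with its SD at the right of each group (n = 6). The ringed SAL replicate 6 is highest for *Kcnj3* at 38.8 CPM and for *Kcnj6* at 19.2 CPM.

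Between IUO and SAL all 4 GIRK log2 fold changes were negative, *Kcnj3* at -0.33 ± 0.27, *Kcnj5* at -0.23 ± 0.14, *Kcnj9* at -0.19 ± 0.19 and *Kcnj6* at -0.05 ± 0.33, and none had an unadjusted p under 0.05 by edgeR, while limma-voom gave *Kcnj5* -0.35 (unadjusted p = 0.00841, adjusted p = 0.156). Without SAL replicate 6, *Kcnj6* turned to 0.39 and *Kcnj3* was -0.09, and *Kcnj9* was -0.32 without SAL replicate 1 and -0.08 without SAL replicate 5. Between PNO and SAL they were -0.35 ± 0.33 for *Kcnj6* and -0.24 ± 0.27 for *Kcnj3*, which became 0.09 and 0.01 without SAL replicate 6, and 0.09 ± 0.19 for *Kcnj9* and 0.13 ± 0.14 for *Kcnj5*. Between IUO and PNO only *Kcnj5* had an unadjusted p under 0.05, with a log2 fold change of -0.36 ± 0.14 (unadjusted p = 0.0207, adjusted p = 0.246 by edgeR).

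The comparison of IUO with PNO sets the exposed groups against each other, and it held most of the channel genes with small p-values. At an unadjusted p under 0.05 there were 11 of 83, or 13.3%, against 15.3% of all genes tested, a share near that of the background. Lower in IUO were 10 of the 11, where 9.11% of all genes were lower and 6.15% higher, but limma-voom gave 10 lower and 14 higher and a replicate block 10 lower and 5 higher. No channel gene passed an adjusted p of 0.05 by edgeR (smallest 0.0734), where 10 of all genes did (0.0636%), while DESeq2 called 4 channel genes, among 437 of all 15733, and limma-voom 8, among 2039. With a 1.5-fold difference added there were 4, against 3.82% of all genes, and these were *Kcng4*, *Kcnc1*, *Kcns3* and *Kcng3*. The groups of 6 separated for 4 genes, all lower in IUO, against 1.65% of all genes and 0.852% in that direction. These 4 were *Kcng4*, *Kcnc1*, *Kcnc2* and *Kcnn2*.

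The 250 bases before the start of the genes with the 4 smallest p-values are shown to give the regions from which these transcripts begin. They come from RefSeq on the GRCr8 build, at chr19:64597889-64598138 on the minus strand for *Kcng4*, chr7:49587364-49587613 on the plus strand for *Kcnc2*, chr3:135195411-135195660 on the minus strand for *Kcnip3* and chr1:106038997-106039246 on the plus strand for *Kcnc1*, each written 5′ to 3′ with GC boxes (GGGCGG, or CCGCCC on the other strand) in capitals.
Kcng4: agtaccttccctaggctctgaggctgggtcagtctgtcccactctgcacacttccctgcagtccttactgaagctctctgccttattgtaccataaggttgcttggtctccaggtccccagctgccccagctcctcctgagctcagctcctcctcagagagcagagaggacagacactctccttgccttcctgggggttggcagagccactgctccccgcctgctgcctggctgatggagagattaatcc
Kcnc2: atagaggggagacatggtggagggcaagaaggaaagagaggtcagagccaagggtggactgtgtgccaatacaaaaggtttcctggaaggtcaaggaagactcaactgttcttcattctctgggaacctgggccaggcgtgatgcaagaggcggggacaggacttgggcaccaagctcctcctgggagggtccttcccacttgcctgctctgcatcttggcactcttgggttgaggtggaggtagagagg
Kcnip3: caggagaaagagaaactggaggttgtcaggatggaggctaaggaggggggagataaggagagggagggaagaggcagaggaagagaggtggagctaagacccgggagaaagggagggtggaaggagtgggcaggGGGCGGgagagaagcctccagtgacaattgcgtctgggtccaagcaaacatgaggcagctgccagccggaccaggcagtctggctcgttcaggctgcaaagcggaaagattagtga
Kcnc1: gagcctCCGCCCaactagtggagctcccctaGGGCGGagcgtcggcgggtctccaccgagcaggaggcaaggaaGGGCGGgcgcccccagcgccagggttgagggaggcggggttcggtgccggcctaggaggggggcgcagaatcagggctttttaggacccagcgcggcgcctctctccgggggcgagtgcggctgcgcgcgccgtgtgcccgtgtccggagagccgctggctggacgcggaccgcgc

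The *Kcnc1* window held 3 GC boxes, 30 CpG and 74.4% G or C, the *Kcnip3* window 1 GC box and 6 CpG at 58.4%, the *Kcng4* window no GC box and 1 CpG at 58.4%, and the *Kcnc2* window no GC box and 2 CpG at 56.0%. *Kcnc2* has another entry at chr7:49587407-49587656, with 4 CpG, and the one shown is the first in the table. Of the 83 symbols tested, 53 matched an entry. Over these 53 a GC box was found in 29, or 54.7%, against 30.5% of 33469 promoters of the same length, with medians of 64.8% G or C against 51.2% and 13 CpG against 5. The core TGACG of the cyclic AMP response element, which on the other strand reads CGTCA, stood in 17.0% of them against 18.2% of all promoters, and it also lies within the full element TGACGTCA, which 0 of the 53 held against 1.59%. The E box CACGTG, which reads the same on both strands, stood in 3.77% against 5.59%, and the TATA box TATAAA, which on the other strand reads TTTATA, in 1.89% against 12.9%. These shares were not tested, and the promoters they are set against are all RefSeq entries and not those of the genes tested here.

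*Kcng4* had the smallest p of the 83. It ran from 3.52 through a median of 4.26 to 6.17 CPM in PNO and from 0.655 through 1.38 to 2.95 CPM in IUO, or 66 to 164 counts per PNO pup and 17 to 55 per IUO pup. Every IUO pup lay below every PNO pup, and SAL pups lay across both ranges. The log2 fold change was -1.56 ± 0.34 (unadjusted p = 0.000261, adjusted p = 0.0734 by edgeR). DESeq2 gave the same fold change with an adjusted p of 0.00228, limma-voom gave -1.62 with 0.0107 and edgeR without IUO replicate 1 gave -1.85 with 0.0441. The adjusted p by edgeR was 0.0783 with a replicate block, 0.0567 with the striatal score and 0.444 with the myelin score in the model.

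*Kcnc2* ran from 22.7 through 28.0 to 30.3 CPM in IUO, against 30.8 to 49.8 CPM in PNO, so that the groups separated by a narrow gap. Its log2 fold change was -0.47 ± 0.11 (unadjusted p = 0.000637, adjusted p = 0.0997 by edgeR). *Kcnc1* ran from 32.9 through 40.5 to 49.3 CPM in PNO against 21.3 to 31.0 CPM in IUO, with a log2 fold change of -0.61 ± 0.16 (unadjusted p = 0.00123, adjusted p = 0.110 by edgeR). The groups separated for this gene as well.

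*Kcnip3* ran from 35.2 through 47.9 to 59.5 CPM in PNO and from 29.9 through 33.6 to 40.2 CPM in IUO. A single PNO pup, replicate 3, lay within the IUO range, and the log2 fold change was -0.47 ± 0.12 (unadjusted p = 0.00114, adjusted p = 0.110 by edgeR). The other KChIP genes had -0.13 ± 0.11 for *Kcnip1*, 0.20 ± 0.22 for *Kcnip2* and -0.17 ± 0.11 for *Kcnip4*.

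*Kcns3*, a silent subunit that modifies Kv2 channels, ran from 6.13 through 10.4 to 12.9 CPM in PNO and from 4.92 through 5.83 to 7.81 CPM in IUO, and the groups overlapped (log2 fold change -0.71 ± 0.23, unadjusted p = 0.00620, adjusted p = 0.167 by edgeR). *Kcnn2* ran from 19.5 through 20.5 to 22.6 CPM in PNO and from 15.0 through 18.1 to 18.8 CPM in IUO, a small difference of -0.27 ± 0.09 on the log2 scale between groups that did not overlap (unadjusted p = 0.00693, adjusted p = 0.171 by edgeR). The remaining lower genes were *Kcnk15*, *Kcna2*, *Kcnj5* and *Kcnj14*. *Kcng3*, a silent subunit at 4 to 29 counts per PNO pup and 10 to 34 per IUO pup, was the single higher one, at 0.81 ± 0.37 (unadjusted p = 0.0429, adjusted p = 0.312 by edgeR).

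**Figure D3:**
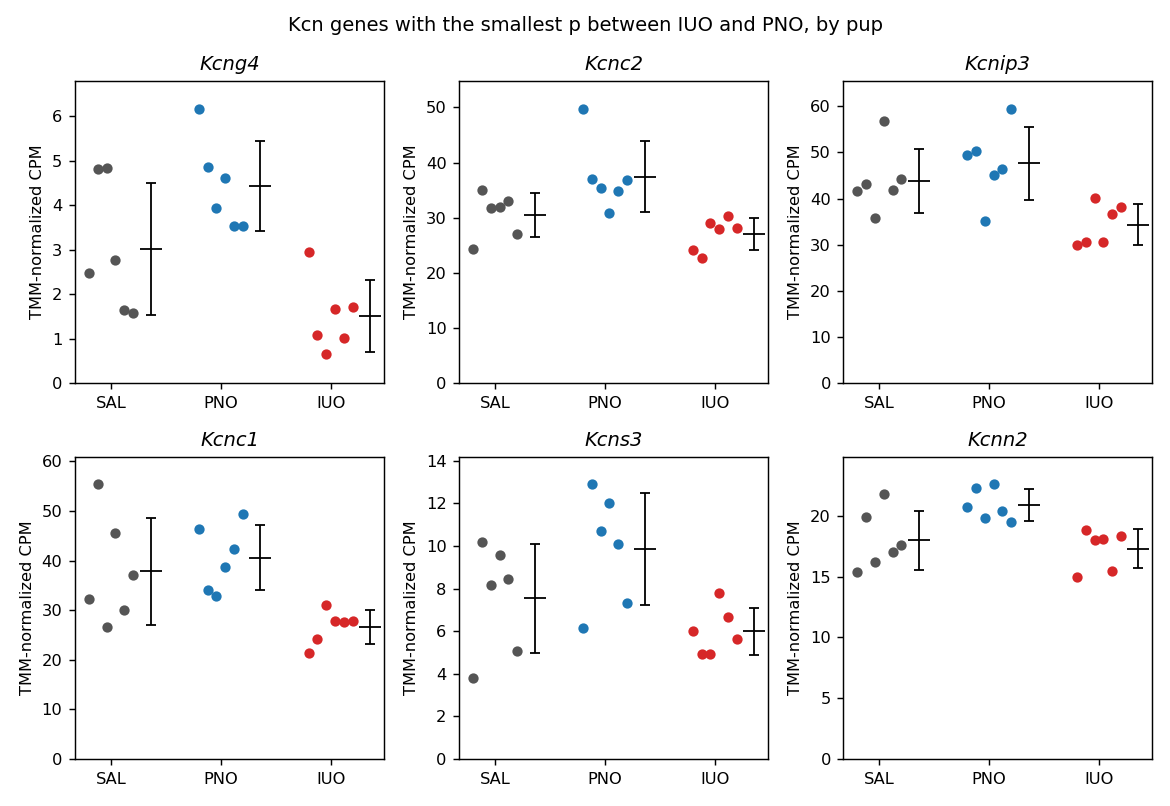
TMM-normalized CPM by pup of the 6 channel genes with the smallest p between IUO and PNO, with the mean and SD at the right of each group (n = 6). IUO pups lie below all PNO pups for *Kcng4*, *Kcnc2*, *Kcnc1* and *Kcnn2*, and SAL pups overlap both groups.

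By class, the median log2 fold change between IUO and PNO was 0.07 over the 37 Kv genes, -0.17 over the 11 auxiliary genes, -0.12 over the 13 Kir genes, -0.03 over the 12 K2P genes and 0.14 over the 9 KCa genes, against -0.00 over all genes tested. Of the 11 auxiliary genes 9 were lower in IUO than in PNO, and 9 were lower in IUO than in SAL, where 49.9% and 48.0% of all genes were higher. Both counts rest on the same IUO pups. By edgeR over the 18 pups no K2P gene had an unadjusted p under 0.05 against SAL in either exposed group, although *Kcnk15* (TASK-5) had one between IUO and SAL by limma-voom (-0.38, unadjusted p = 0.0281) and in the edgeR fit of only the 12 pups compared (-0.35, unadjusted p = 0.0323). *Kcnk15* was also the only K2P gene under it between IUO and PNO in the fit of 18 pups, at -0.58 ± 0.21 on the log2 scale (unadjusted p = 0.0126, adjusted p = 0.207 by edgeR).

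**Figure D4:**
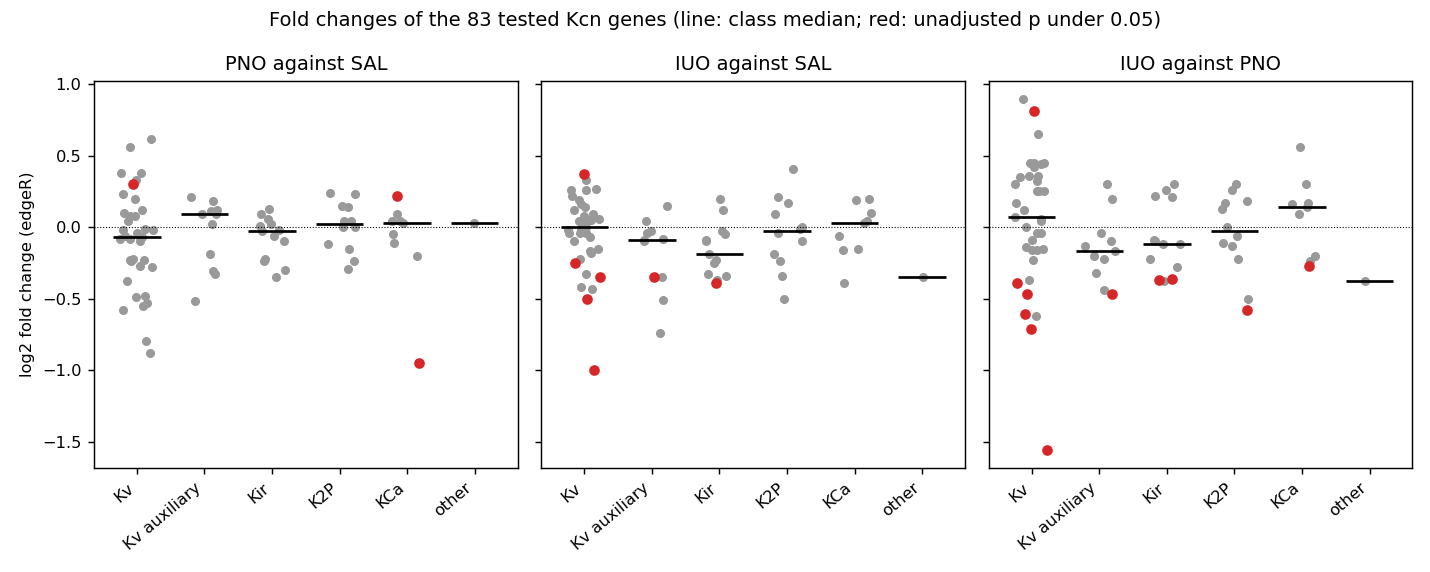
log2 fold change of each of the 83 tested channel genes in the 3 comparisons, by class, with the class median as a line and genes with an unadjusted p under 0.05 in red. Red points number 3, 7 and 11, and 10 of the 11 between IUO and PNO lie below 0, a balance that limma-voom did not give (10 lower and 14 higher).

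Myelin markers and single markers of fast-spiking interneurons were also lower in IUO than in PNO, as were 10 of 11 choroid plexus markers (median log2 fold change -1.04), and the 12 striatal markers were all higher (0.84). *Pvalb*, the calcium-binding protein that defines fast-spiking interneurons, ran from 10.4 through 21.5 to 33.5 CPM in PNO and from 2.60 through 4.71 to 5.93 CPM in IUO, with a log2 fold change of -2.34 ± 0.41 (adjusted p = 0.0356 by edgeR) and no overlap. *Syt2*, a synaptotagmin of the same cells, had -1.27 ± 0.36 (adjusted p = 0.128). Of the 7 genes in the marker list of these cells (*Pvalb*, *Syt2*, *Vwc2*, *Lhx6*, *Sox6*, *Gad1* and *Gad2*), however, 4 were lower and 3 higher with a median log2 fold change of -0.01, 2 had an unadjusted p under 0.05, and their summed level was 197 to 417 TPM in PNO and 182 to 279 TPM in IUO, with none at 0. Most of that sum came from *Gad1* and *Gad2* (means of 102 and 72.0 TPM in PNO and 97.1 and 86.6 TPM in IUO), which GABAergic neurons in general express, those of the striatum included.

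All 12 myelin markers had an unadjusted p under 0.05 between IUO and PNO, and their summed level was 2301 to 11970 TPM in PNO and 1778 to 4077 TPM in IUO. With the myelin score in the model the log2 fold change between IUO and PNO was -0.89 for *Kcng4*, -0.38 for *Kcnc2*, -0.53 for *Kcnip3* and -0.59 for *Kcnc1*, and with the striatal score it was -1.73, -0.44, -0.34 and -0.44. The part of either cell type in these differences was not tested.

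Some channel genes are known from particular cells, and 14 of them were set beside the marker score of that cell type over the 18 pups, with permutation p-values (100000 resamples, two-sided) adjusted over the 14 relations. Pups were permuted across the 3 groups. These p-values therefore do not separate a relation between pups from a group difference that gene and score share. *Kcnv1*, a silent subunit of cortical neurons, was higher in pups with a higher score of cortical excitatory neurons (Pearson r = 0.73, permutation p = 0.00055, adjusted p = 0.0055; Spearman rho = 0.75, permutation p = 0.00045). The relation held in each group, with r of 0.82, 0.61 and 0.82 in SAL, PNO and IUO, and was 0.75 without the 2 pups farthest from the median score. *Kcnh5* went with the same score at r = 0.66 (rho 0.68, adjusted permutation p = 0.0068), and at 0.60, 0.80 and 0.72 within groups.

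Among genes known from striatum, *Kcnab1* (Kvβ1) had r = 0.66 with the striatal score (permutation p = 0.0024, adjusted p = 0.0068, rho 0.65) and 0.72, 0.94 and 0.97 within SAL, PNO and IUO. *Kcnip2* had r = 0.64 (adjusted permutation p = 0.011, rho 0.59) and 0.67, 0.84 and 0.68 within groups. *Kcnh4* reached only r = 0.47 (adjusted permutation p = 0.062, rho 0.45). The within-group values of *Kcnab1* were higher than the pooled one.

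*Kcnc1* had r = 0.64 with the score of fast-spiking interneurons (permutation p = 0.0027, adjusted p = 0.0068, rho 0.66), 0.49, 0.75 and 0.35 within SAL, PNO and IUO, and 0.58 without the 2 farthest pups. That score averages 7 genes that moved in both directions between IUO and PNO. *Gad1* and *Gad2*, which GABAergic neurons in general express, are among them. *Kcnc2* had r = 0.59 (adjusted permutation p = 0.020, rho 0.33) but -0.31 within SAL and -0.06 within IUO, and 0.09 without PNO replicates 1 and 6, so its relation rested on these pups. *Kcnj8* (Kir6.1), a subunit of the KATP channel of pericytes, had r = 0.71 with the score of mural cells (permutation p = 0.00079, adjusted p = 0.0055, rho 0.60), with 0.77 and 0.84 within SAL and PNO and -0.26 within IUO.

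*Kcne2*, an auxiliary subunit of the choroid plexus, had r = 0.61 with the choroid plexus score (adjusted permutation p = 0.013, rho 0.66) and 0.35, 0.84 and 0.89 within groups. *Kcnj13* (Kir7.1), also of that epithelium, had r = 0.48 (adjusted permutation p = 0.061, rho 0.36), which was 0.11 without PNO replicate 1 and SAL replicate 3. *Kcnj10* (Kir4.1), the astrocyte channel that clears extracellular potassium, had r = 0.66 with the astrocyte score (adjusted permutation p = 0.0068, rho 0.58), 0.69, 0.82 and 0.71 within SAL, PNO and IUO, and 0.37 without PNO replicate 1 and SAL replicate 6. For *Kcnj16*, its usual partner Kir5.1, r was 0.30 (adjusted permutation p = 0.27), and for *Kcnk13* and *Kcnk6*, set beside the microglia score, it was 0.09 and -0.05.

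**Figure D5:**
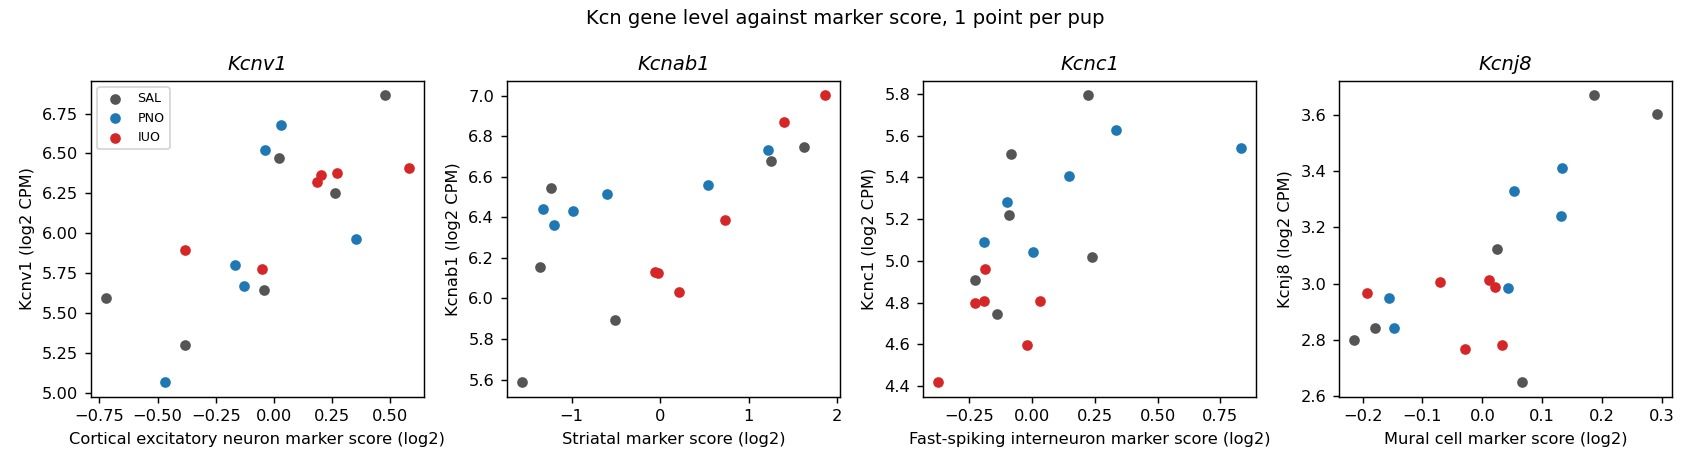
log2 CPM of 4 channel genes against a marker score, 1 point per pup and colored by group. *Kcnv1* follows the cortical excitatory score (r = 0.73), *Kcnab1* the striatal score (0.66), *Kcnc1* the fast-spiking interneuron score (0.64) and *Kcnj8* the mural cell score (0.71) over 18 pups. The fast-spiking interneuron score includes *Gad1* and *Gad2*, which GABAergic neurons in general express.

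A list of 45 proteins that bind, place or open potassium channels or share their cells, among them Kv4 and Kv1 partners, GABA-B and opioid receptors, G protein β subunits, RGS proteins, calmodulins and HCN channels, had 42 genes in the tables and 40 tested. *Calm2* is counted under 2 identifiers in both numbers. Between PNO and SAL 0 of the 40 had an unadjusted p under 0.05 by edgeR, against 4.51% of all genes. Between IUO and SAL there were 2, *Cntnap1* and *Amigo1*, and between IUO and PNO there were 2, *Cntnap1* and *Lgi3*, all lower in IUO. Each time this was 5.00% of the list, against 6.86% and 15.3% of all genes. None passed after adjustment by edgeR.

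*Cntnap1* encodes Caspr, the paranodal protein of myelinated axons that keeps Kv1 channels out of the node. It ran from 131 through 162 to 201 CPM in SAL, from 149 through 165 to 205 CPM in PNO and from 101 through 120 to 138 CPM in IUO. IUO pups lay below every PNO pup and overlapped SAL, with log2 fold changes of -0.46 ± 0.10 against PNO (unadjusted p = 0.000289, adjusted p = 0.0771) and -0.44 ± 0.10 against SAL (adjusted p = 0.235 by edgeR). *Lgi3*, a secreted protein found with axonal Kv1 channels, had -0.77 ± 0.22 between IUO and PNO (adjusted p = 0.133), and *Amigo1*, an auxiliary protein of Kv2.1, had -0.24 ± 0.09 between IUO and SAL (adjusted p = 0.557 by edgeR).

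Receptors upstream of GIRK channels gave no call. The µ-opioid receptor gene *Oprm1* ran from 0.318 through 0.586 to 2.06 CPM in SAL, from 0.294 through 0.332 to 2.33 CPM in PNO and from 0.626 through 0.769 to 1.23 CPM in IUO, at 6 to 62 counts in the SAL and PNO pups. Its log2 fold change against SAL was -0.06 ± 0.53 in PNO and 0.04 ± 0.53 in IUO, and a difference of the size of this error was not detectable. *Gabbr1*, a subunit of the GABA-B receptor, was abundant and close between groups, with means of 950, 925 and 932 CPM in SAL, PNO and IUO and log2 fold changes of -0.04 ± 0.06 and -0.03 ± 0.06 against SAL.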

How the data were processed

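PFC RNA of 18 pups at P14 was sequenced by the study as 75 bp single reads from libraries that do not keep strand, so reads of overlapping antisense genes cannot be told apart. For every pup the authors deposited expected counts by gene, estimates that divide a read fitting several genes among them. The TPM values that the authors deposited beside them are scaled to gene length and to 1 total in all pups. The FPKM values that the authors deposited were not used. The aligner, the counting program and the genome build are not given in the sources used here. Groups and replicate numbers came from the sample titles.

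Expected counts were rounded and tested in edgeR 4.0.16 (R 4.3.3) with TMM normalization, glmQLFit and glmQLFTest, two-sided, in 1 model over the 3 groups with 15 residual degrees of freedom. Genes with at least 10 counts in at least 6 pups were tested, and Benjamini-Hochberg adjustment covered all 15733. CPM values are TMM-normalized, and log2 CPM for scores used a prior count of 2. Each log2 fold change is followed by its standard error. The threshold was an adjusted p-value of 0.05, and counts at an unadjusted p-value under 0.05, alone and with a 1.5-fold difference, are given beside it. Relations used permutation tests in scipy 1.17.1. Tables used Python 3.11.15, pandas 2.3.3 and numpy 2.4.6, and plots matplotlib 3.10.9.

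Genes named are the 6 with the smallest p in each comparison, the 3 with the highest TPM in SAL in each class, the GIRK subunits, the 5 with the largest coefficient of variation and those set beside marker scores. The further genes with an unadjusted p under 0.05, the KChIP genes, *Kcnq5* and single partner genes were named after their values were seen. Results for some genes are not reported here. The channel genes, classes, marker lists and partner list were chosen with earlier results of these data known. Alternatives were limma-voom with quality weights (limma 3.58.1), DESeq2 1.42.0, other size factors and filters, a fit of only the 12 pups compared, a block by replicate number, a marker score as a covariate and each pup left out in turn. Tested on simulated data modelled on IUO against SAL (15600 genes), edgeR recovered 41.8% of genes changed 1.5-fold and 69% of genes changed 2-fold, with 3.51% of calls false. The changed genes were drawn from all genes, and the simulation held no tissue or pup differences shared between genes. Channel genes had a larger spread (median coefficient of variation 0.261 against 0.180), so these rates were not measured for them.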

Additional observations from a re-analysis of the deposited data

Results flagged for a closer look

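On the log2 CPM scale, 2 of 132 groups of 6 pups looked at held a pup far from the other 5, where chance gives about 1 in 20. *Kcnh4*, an ether-à-go-go type channel of the striatum, was 12.3 CPM in IUO replicate 6, where the nearest IUO pup had 17.4 CPM. *Kcnk6*, a K2P channel, was 1.58 CPM in the same pup, where the nearest had 2.74 CPM. The gap took up 0.64 and 0.77 of the whole log2 range of the group. On the CPM scale, tried after seeing the data, 9 of the 132 groups held such a pup, 4 times SAL replicate 6 as the highest (*Kcna3*, *Kcnh5*, *Kcnj10* and *Kcnn4*) and 3 times PNO replicate 1 as the highest (*Kcnc2*, *Kcnj10* and *Kcnj13*). *Kcnk6* was among the 9 in PNO replicate 2 as the highest and again in IUO replicate 6, with a gap of 0.71 of the range there, and *Kcnh4* was not.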

How the results depend on the processing

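Against SAL, in PNO or in IUO, no alternative run gave a channel gene with an adjusted p under 0.05. Between IUO and PNO edgeR gave 0 such genes, while DESeq2 gave 4 (*Kcng4*, *Kcnc2*, *Kcnip3* and *Kcnc1*, all lower in IUO), limma-voom 8 (among them the same 4 with *Kcnk15*, *Kcnj14* and *Kcnn2*, all lower), a fit of only the 12 pups compared 2 (*Kcng4* and *Kcnc1*), and leaving out each pup in turn 0 to 1. Over all genes DESeq2 called 437 and limma-voom 2039, against 10 by edgeR, and a fit of only the 12 pups 75; the cause was not tested. At an unadjusted p under 0.05, limma-voom gave 1 channel gene in place of 3 in PNO against SAL, 14 in place of 7 in IUO against SAL and 24 in place of 11 between the exposed groups, and its 24 were split into 10 lower and 14 higher in IUO. Over all genes it gave 6.72%, 17.2% and 33.9%. Leaving out each pup gave 2 to 7 (7 without PNO replicate 1, where 9% of all genes passed, 5 without SAL replicate 2, where 4.93% did), 5 to 11 (11 without SAL replicate 5, with 7.83% of all genes) and 9 to 14. In the last comparison the share of all genes ran from 11.2% (without IUO replicate 5) to 21.2% (without PNO replicate 1). In added runs that left out each pup, chosen after seeing the data, the count lower in IUO than in PNO was 9 to 11 and the Kir count lower in IUO than in SAL 9 to 12 of 13, and without a filter it was 13 of 15. *Kcnj6* turned direction between PNO and SAL with the myelin score (0.26) and without SAL replicate 6 (0.09; -0.48 to 0.09 over all pups left out in turn), between IUO and SAL by limma-voom (0.42), with a replicate block (0.07), with the striatal score (0.25) and without SAL replicate 6 (0.39, range -0.20 to 0.39), and between IUO and PNO with the myelin score (-0.53). *Kcnj3* turned between PNO and SAL with the myelin score (0.12) and without SAL replicate 6 (0.01, range -0.40 to 0.01), and between IUO and PNO by limma-voom (0.09), with the striatal score (0.10) and without PNO replicate 5 (0.07, range -0.20 to 0.07). *Kcnj9* turned between PNO and SAL without SAL replicate 1 (-0.03, range -0.03 to 0.20). None of these GIRK values had passed a threshold by edgeR. The myelin score moved the median of the channel genes between IUO and PNO from -0.04 to -0.24, where the median of all genes was -0.02 with that score. Without the 2 farthest pups the relations of *Kcnj13*, *Kcnj10* and *Kcnc2* became 0.11, 0.37 and 0.09.

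Whether the replicate numbers pair the pups was not settled. Same-numbered pups correlated over 0.1 in 4 of 6 pairs of PNO with SAL (mean r 0.231). The count was 1 for IUO with SAL (mean r -0.0275) and 3 for IUO with PNO (mean r 0.0618). Pups of different number were not set beside these. In SAL and in PNO only replicates 1 and 3 had positive striatal scores (1.63 and 1.26, 0.54 and 1.22). A replicate block gave 4, 8 and 15 channel genes at an unadjusted p under 0.05, against 4.62%, 7.43% and 16.5% of all genes, and 0 after adjustment, with *Kcng4* at -1.57 between IUO and PNO (adjusted p = 0.0783 by edgeR). Genes with few counts, such as *Kcnn4*, *Kcng3* and *Oprm1*, carry wide errors at this depth.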
